A study of Mus musculus with 12 samples.

Results

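Tributyltin was compared with vehicle in mouse bone marrow stromal cells that had been taken through adipogenic induction, over all genes with enough counts to test. The comparison uses 8 of the 12 RNA-seq libraries of the study, 4 labelled TBT (tributyltin) and 4 labelled DMSO (dimethyl sulfoxide, the vehicle). Of 23955 gene symbols in the count table, 12323 were tested. The cells are commercial mesenchymal stem cells from the bone marrow of female C57BL/6 mice at passage 9 or 10, a stromal population able to form bone, cartilage or fat. They were plated at 15000 cells per square cm, grown for 72 hours and then kept for 14 days under an adipogenic mix that all groups received, of insulin (5 ug/mL), dexamethasone (1 uM) and isobutylmethylxanthine (0.5 mM). The TBT group also received 50 nM tributyltin and the DMSO group 0.1% DMSO. A further group of 4 libraries received 500 nM rosiglitazone (ROSI), a drug that activates the fat cell receptor PPARγ; it entered the model and is used here only for contrast. The source is a single commercial line. Nothing in the labels says that the 4 libraries of a treatment are separate cultures, so a p-value here reflects only library-to-library spread, which could be technical. The reads carry no strand, so a gene cannot be told apart from an overlapping or antisense one.

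Tributyltin is an organotin compound once used in marine paints. It binds the retinoid X receptors (RXR) and PPARγ. An RXR pairs with other nuclear receptors: with PPARγ it drives fat storage genes, with the liver X receptors (LXR) genes of cholesterol export, and with the retinoic acid receptors (RAR) genes of retinoid breakdown. Some of these pairs can be switched on through RXR alone. In marrow, stromal cells are the source of both bone-forming cells and fat cells. By its title, the study concerns activation of RXR while fat cells form.

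Library totals of the 8 libraries ran from 4074568 to 7111542 counts. TBT replicate 4 lay apart from TBT replicates 1 to 3. Its mean correlation across genes was 0.961 with the DMSO libraries and 0.953 with its own group. Rn45s, the ribosomal RNA precursor, took 6.85% of its counts, against 0.399% to 0.671% in the other TBT libraries and 2.64% to 6.18% in DMSO. The difference between GC-rich and GC-poor genes on the log2 scale was −0.02 in TBT replicate 4, from −0.68 to −0.39 in TBT replicates 1 to 3, and from −0.08 to 0.14 in DMSO. Counts on 1504 sensory receptor genes, which most tissues do not express, summed to 516 ± 216 CPM in DMSO and 149 ± 40.3 CPM in TBT (SD, n = 4; exact two-sided permutation p = 0.0286, the smallest that 4 against 4 allows). CPM here means counts per 1000000 counts of the TMM-scaled library size. DMSO replicate 3 was the highest DMSO library for some fat cell genes, such as Fabp4, Cd36 and Plin1, and the lowest for Adipoq and Cfd. In brackets after a fold change stand the edgeR adjusted p and then the signed log2 fold change without TBT replicate 4 (TBT 4). Fold changes against DMSO and list counts are also given without TBT replicate 4, and without any other library where that changes a call or moves a called fold or a count by over 1.5 times; medians of lists are over all libraries; the part of these library differences in the results was otherwise not tested.

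**Figure D1:**
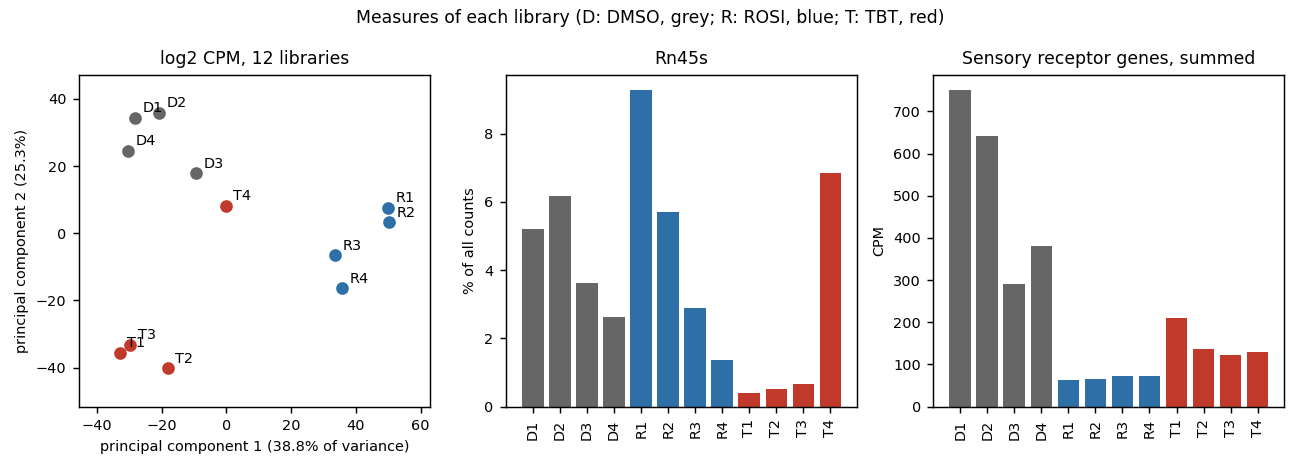
Left, principal components of log2 CPM over 12 libraries; middle, Rn45s as a percent of counts; right, summed CPM of sensory receptor genes, with 1 point or bar per library. TBT replicate 4 (T4) lies near DMSO replicate 3 and has 6.85% of its counts on Rn45s, while the other TBT libraries have 0.399% to 0.671%.

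A large share of the genes differed between the TBT and DMSO libraries. Of the 12323 genes tested, 1879 passed an adjusted p of 0.05 (15.2%), 1013 of them higher in TBT (8.22%) and 866 lower (7.03%), by edgeR's quasi-likelihood test with Benjamini-Hochberg adjustment. At least 2-fold differences were fewer, 192 higher (1.56%) and 317 lower (2.57%). With upper-quartile scaling in place of TMM the split was 748 higher and 1143 lower. Leaving out TBT replicate 4 gave 4124 genes of 12635 tested (32.6%), 2093 higher (16.6%) and 2031 lower (16.1%), with 326 (2.58%) and 763 (6.04%) of them at least 2-fold. Of the 1879 genes, 1850 also passed without that library and 0 passed in the opposite direction. TBT replicate 4 itself lay inside the range of the DMSO libraries for 284 of the 1013 higher and 156 of the 866 lower genes. Leaving out any other library lowered the count, to 1019 without DMSO replicate 1, 1088 without DMSO replicate 2, 1056, 1138 and 1080 without TBT replicates 1, 2 and 3, 1596 without DMSO replicate 3 and 1424 without DMSO replicate 4. The groups of 4 libraries did not overlap for 914 tested genes higher in TBT (7.42%) and 1018 lower (8.26%).

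**Figure D2:**
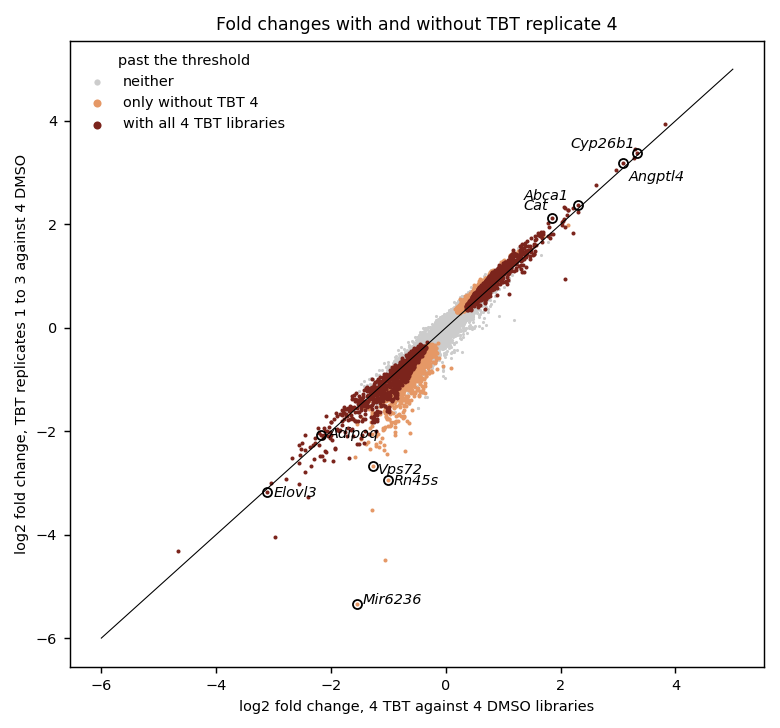
Log2 fold change of each gene with all 4 TBT libraries (horizontal axis) and without TBT replicate 4 (vertical axis), coloured by which of the fits passed the gene. Cyp26b1, Abca1 and Angptl4 lie near the diagonal, and Mir6236, Rn45s and Vps72 fall far below it.

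Cyp26b1 had the smallest p of all genes tested. It encodes an enzyme that oxidises retinoic acid and is a classical retinoid-induced gene. Its level was 20.4, 23.2, 26.7 and 25.6 CPM in DMSO replicates 1 to 4 and 234, 292, 221 and 221 CPM in TBT replicates 1 to 4. Every TBT library, replicate 4 included, lay far above every DMSO library. The log2 fold change was 3.33 ± 0.15 (± SE; edgeR adjusted p = 3.62e-10), and 3.38 ± 0.15 without TBT replicate 4 (1.46e-11). Rosiglitazone libraries averaged 42.02 ± 4.93 CPM (SD, n = 4), and TBT lay above them by 2.53 ± 0.14 (edgeR adjusted p = 1.58e-08; 2.58 and 1.02e-09 without TBT replicate 4). Rbp4, the carrier of retinol in blood and also a fat cell product, had the largest rise in log2 fold change among all genes past the threshold, 3.82 ± 0.40 (edgeR adjusted p = 2.39e-05, 3.95 without TBT replicate 4). Rbp4 stood at 0.713, 1.87, 2.21 and 0.474 CPM in DMSO and 20.7, 18.9, 23.3 and 14.6 CPM in TBT, so it went from barely counted to clearly present in all TBT libraries.

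Among the 18 tested genes of retinoid handling and retinoic acid response, 4 rose (22.2%) and 1 fell (5.56%), and 5 and 1 without TBT replicate 4. The share of each list past the threshold, here and below, stands against 8.22% higher and 7.03% lower of all genes tested, and against 16.6% and 16.1% without TBT replicate 4. The lists were chosen with earlier results of these data known, and some share members. Their shares are thus descriptions and not tests. The others that rose were Dhrs3, which turns retinaldehyde back into retinol, by 0.55 ± 0.13 on the log2 scale (edgeR adjusted p = 0.011, 0.53 without TBT replicate 4), and Rdh14, a retinol dehydrogenase, by 0.91 ± 0.21 (0.0111, 1.02 without TBT 4). The list's median log2 fold change was −0.03, near the −0.01 of all genes tested, so the response was one of a few members. In bulk RNA, fewer cells of a type and less RNA per cell cannot be told apart, here or in any result below.

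Of 15 tested genes for RXR and its partner receptors, 2 rose and 2 fell (13.3% each), with a median log2 fold change of −0.40, and 2 rose and 6 fell without TBT replicate 4. With GC correction 2 rose and 1 fell, and 3 and 3 when TBT replicate 4 was also left out. Only 1 rose without any one of the DMSO libraries or TBT replicate 1 or 2, and 1 fell without DMSO replicate 1 or 2 or TBT replicate 1 or 3. Rxra, the main RXR of fat and liver, was at 125, 133, 135 and 120.3 CPM in DMSO and 114, 93.6, 114 and 136 CPM in TBT, a log2 difference of −0.17 ± 0.14 that did not pass (edgeR adjusted p = 0.426, −0.25 without TBT replicate 4). Its groups overlapped, and the sign turned with a correction for GC content (0.07). Pparg was at 0.36 ± 0.15 and did not pass (0.119; 0.38 and 0.0772 without TBT replicate 4). Rxrg was at or below 0.702 CPM in every library of both groups and was not tested.

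Thyroid hormone receptors moved in opposite directions. Thra fell by 0.86 ± 0.19 on the log2 scale (edgeR adjusted p = 0.00808, −1.12 without TBT replicate 4), from 41.3, 42.3, 43.5 and 44.1 CPM in DMSO to 18.2, 15.6, 25.03 and 35.7 CPM in TBT. The DMSO libraries lay close together, and TBT replicate 4 was the TBT library nearest to them. Thrb rose by 0.56 ± 0.13 (0.0114, 0.63 without TBT 4). Nr1h3, which encodes LXRα, rose by 0.65 ± 0.21 (0.0484; 0.64 and 0.0346 without TBT replicate 4). That call is weak: it was lost without DMSO replicate 1 (0.68), 2 (0.74), 3 (0.63) or 4 (0.53), without TBT replicate 1 (0.59) or 2 (0.57), and with upper-quartile scaling (0.57), a filter at a mean of 5 CPM (0.62), the replicate block (0.63), limma on the deposited log2 values (0.37) or a fit of the 8 libraries alone (0.63). Nr4a1, an orphan receptor that can pair with RXR, fell by 0.70 ± 0.20 (0.028, −0.87 without TBT 4); its call was lost without DMSO replicate 1 (−0.67) or 2 (−0.63), without TBT replicate 1 (−0.61) or 3 (−0.58), with GC correction (−0.47) and in the fit of the 8 libraries (−0.71).

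Some receptors passed the threshold only with TBT replicate 4 left out. Nr1h2, which encodes LXRβ, was at −0.63 ± 0.30 with 4 TBT libraries (edgeR adjusted p = 0.158) and −0.95 ± 0.28 with 3 (0.0133). The values were −0.40 ± 0.29 (0.358) and −0.79 ± 0.25 (0.0224) for Rxrb, −0.46 ± 0.19 (0.107) and −0.55 ± 0.20 (0.0356) for Rara, and −0.60 ± 0.33 (0.217) and −1.16 ± 0.24 (0.00125) for Rarg. Rarg stood at 24.7, 28.3, 17.7 and 18.96 CPM in DMSO and 10.2, 7.91, 11.3 and 29.6 CPM in TBT, so replicate 4 was above all DMSO libraries while the other TBT libraries were below them. With GC correction and without TBT replicate 4, Rarg kept its call (−0.79, edgeR adjusted p = 0.00858), while Nr1h2 (−0.54, 0.113), Rxrb (−0.37, 0.215) and Rara (−0.18, 0.508) did not pass. Rarb did not pass in either fit (−0.41 and −0.35; 0.176 and 0.222).

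The cholesterol exporter Abca1 had the next smallest p. Abca1, the pump that loads cholesterol onto apolipoprotein A-I and a direct target of LXR with RXR, was at 147, 151, 180.3 and 153 CPM in DMSO and 818, 895, 719.6 and 689 CPM in TBT. All TBT libraries, replicate 4 included, were more than 3-fold above every DMSO library. It rose by 2.31 ± 0.14 on the log2 scale (edgeR adjusted p = 5.61e-08, 2.37 without TBT replicate 4) and lay 1.31 ± 0.14 above ROSI (5.56e-06; 1.37 and 5.32e-07 without TBT replicate 4). Of 12 tested LXR target and efflux genes, 6 rose (50%) and 2 fell (16.7%), and 6 and 3 without TBT replicate 4, and 1 fell without TBT replicate 1. Their median was 0.61, against −0.01 over all genes tested. Lpcat3, which puts polyunsaturated fatty acids into phospholipids, rose by 0.58 ± 0.11 (edgeR adjusted p = 0.00335, 0.55 without TBT replicate 4), and the desaturase gene Scd1 and the lipase gene Lpl, given with the lipid genes below, were the others apart from Nr1h3 and Srebf1.

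Srebf1, the master regulator of fatty acid synthesis and an LXR target, rose by 0.70 ± 0.20 (edgeR adjusted p = 0.0297, 0.55 without TBT replicate 4). Its groups overlapped, and the call was lost without DMSO replicate 1 (0.70), 2 (0.68) or 4 (0.55), without TBT replicate 2 (0.72) or 3 (0.69), with upper-quartile scaling (0.63), with the replicate block (0.71) and in the fit of the 8 libraries (0.69). The LXR targets that fell were Mylip, which encodes a ubiquitin ligase, at −0.72 ± 0.18 (0.0133, −0.78 without TBT 4), and Arl4c, a small GTPase, at −0.75 ± 0.19 (0.0151, −0.90 without TBT 4), lost without TBT replicate 1 (−0.66). Abcg1, the export pump for high-density lipoprotein, did not pass, at 1.30 ± 0.50 (0.0826; 1.16 and 0.0732 without TBT replicate 4). It was at 1.90, 5.62, 33.02 and 4.74 CPM in DMSO and 23.4, 34.5, 23.3 and 38.3 CPM in TBT, and DMSO replicate 3 alone reached the TBT range; without that library the difference was 2.83 (1.58e-05). Unlike Abca1, TBT was below ROSI for Abcg1 (−1.52, edgeR adjusted p = 0.0254), Mylip (−1.02, 0.000609) and Arl4c (−0.66, 0.0189). For Lpcat3 it was above ROSI (0.42, edgeR adjusted p = 0.0122). Without TBT replicate 4 these contrasts were −1.65, −1.08, −0.81 and 0.38, and all passed. Those of Nr1h3, Scd1 and Lpl passed in neither fit, and that of Srebf1 only without TBT replicate 4 (−0.66, 0.00954).

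The promoters of Cyp26b1 and Abca1 are shown because these genes had the smallest p-values, and that of Insig1, a sterol-regulated gene described below, because it holds motifs that were searched. Each is the RefSeq window on GRCm38.p6 (the counts were made on mm9) from 250 bases before to 50 bases after the annotated start, read 5′ to 3′ along the gene. They lie at chr6:84593761-84594060 (minus strand), chr4:53159846-53160145 (minus strand) and chr5:28071162-28071461 (plus strand). Capitals mark matches on either strand to the receptor hexamer AGGTCA or to the sterol core CACNCCAC.
Cyp26b1: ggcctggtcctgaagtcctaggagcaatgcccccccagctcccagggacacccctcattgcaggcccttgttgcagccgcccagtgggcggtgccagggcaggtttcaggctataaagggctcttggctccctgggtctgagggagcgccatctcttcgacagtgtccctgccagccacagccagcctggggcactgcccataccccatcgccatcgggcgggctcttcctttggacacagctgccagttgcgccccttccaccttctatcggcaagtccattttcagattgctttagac
Abca1: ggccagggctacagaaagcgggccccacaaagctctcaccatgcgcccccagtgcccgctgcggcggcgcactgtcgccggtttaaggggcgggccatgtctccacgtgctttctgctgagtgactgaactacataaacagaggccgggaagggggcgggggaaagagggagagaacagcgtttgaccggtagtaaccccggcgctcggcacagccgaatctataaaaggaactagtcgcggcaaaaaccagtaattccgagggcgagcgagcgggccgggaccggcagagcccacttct
Insig1: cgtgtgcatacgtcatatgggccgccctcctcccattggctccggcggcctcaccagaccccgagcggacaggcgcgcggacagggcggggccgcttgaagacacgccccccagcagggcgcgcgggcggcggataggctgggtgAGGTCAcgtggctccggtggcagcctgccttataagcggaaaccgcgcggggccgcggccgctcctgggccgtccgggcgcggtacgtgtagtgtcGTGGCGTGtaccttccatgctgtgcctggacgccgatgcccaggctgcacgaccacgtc
The Insig1 window holds 1 hexamer and, on the minus strand, 1 sterol core. The windows of Cyp26b1 and Abca1 hold no exact match to either. A receptor site of another spelling, or outside the window, would be missed by this search. The lack of a match therefore does not show that a promoter lacks a receptor site. A promoter window was found for 9177 tested genes. The hexamer AGGTCA was in 14.5% of these, in 15.4% of the 746 that rose and in 15.8% of the 634 that fell, so nearly equal shares. The sterol core was in 7.31%, 7.77% and 8.52%. Direct repeats of AGGTCA (the variant GGGTCA and the variant AGTTCA were also allowed) with 1 base between them, the form bound by PPAR with RXR, were in 0.272% of the 9177, in 6 of the 746 that rose (0.804%) and in 0 of the 634 that fell; a repeat that holds AGGTCA is also counted under the hexamer. With 4 or 5 bases between them, they were in 0.0218% each. Of the 16 tested PPAR targets with a window, 0 held a repeat with 1 base between, and 5 held the hexamer (31.2%). The hexamer was in 0 of 8 LXR target and efflux genes, 2 of 18 sterol genes (11.1%) and 2 of 11 retinoid genes (18.2%). The 6 genes that rose and held a repeat with 1 base between were Ak4, Amd2, Asah2, Ccdc84, Dnaja2 and Srp54a. These differences in shares were not tested. All the matches above are matches of letters in 300 bases, not bound sites.

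PPAR targets rose in 13 of 22 tested (59.1%) and fell in 0, against 8.22% and 7.03% of all genes, and the count was 13 and 0 without TBT replicate 4 and 16 and 0 without DMSO replicate 3. Their median log2 fold change was 0.94. Angptl4, a secreted inhibitor of lipoprotein lipase, led them: 46.8, 31.4, 76.7 and 41.1 CPM in DMSO and 441, 395, 496 and 339 CPM in TBT. No TBT library came near a DMSO library. It rose by 3.08 ± 0.22 (edgeR adjusted p = 3.22e-07, 3.18 without TBT replicate 4) and was above ROSI by 1.04 ± 0.20 (0.00151; 1.14 and 0.000152 without TBT replicate 4). Pdk4, which turns glucose away from mitochondrial oxidation, rose by 1.47 ± 0.17 (5.79e-05, 1.40 without TBT 4) and Plin4, a lipid droplet coat protein, by 1.31 ± 0.17 (0.000143, 1.28 without TBT 4). Cpt1a, the gate for fatty acid entry into mitochondria, rose by 1.13 ± 0.19 (0.00134, 1.24 without TBT 4), and Lpl, which frees fatty acids from lipoproteins, by 1.13 ± 0.22 (0.00331, 1.28 without TBT 4).

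The fatty acid carriers showed a DMSO library that stood apart. Fabp5 was at 6.18, 8.19, 31.2 and 6.95 CPM in DMSO and 60.9, 90.3, 54.1 and 51.1 CPM in TBT, Fabp4, the fat cell carrier, at 85.5, 126, 314 and 63.8 and 431, 696, 366 and 364, and Cd36, a fatty acid uptake receptor, at 87.7, 84.2, 388 and 96.1 and 579, 708, 432 and 620.0. In all 3 genes DMSO replicate 3 was the highest DMSO library and still below the lowest TBT library. The log2 fold changes were 2.22 ± 0.38, 1.65 ± 0.36 and 1.83 ± 0.38 (edgeR adjusted p = 0.00126, 0.0073 and 0.00572). They were 2.32, 1.77 and 1.81 without TBT replicate 4, and 3.16, 2.33 and 2.70 without DMSO replicate 3.

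**Figure D3:**
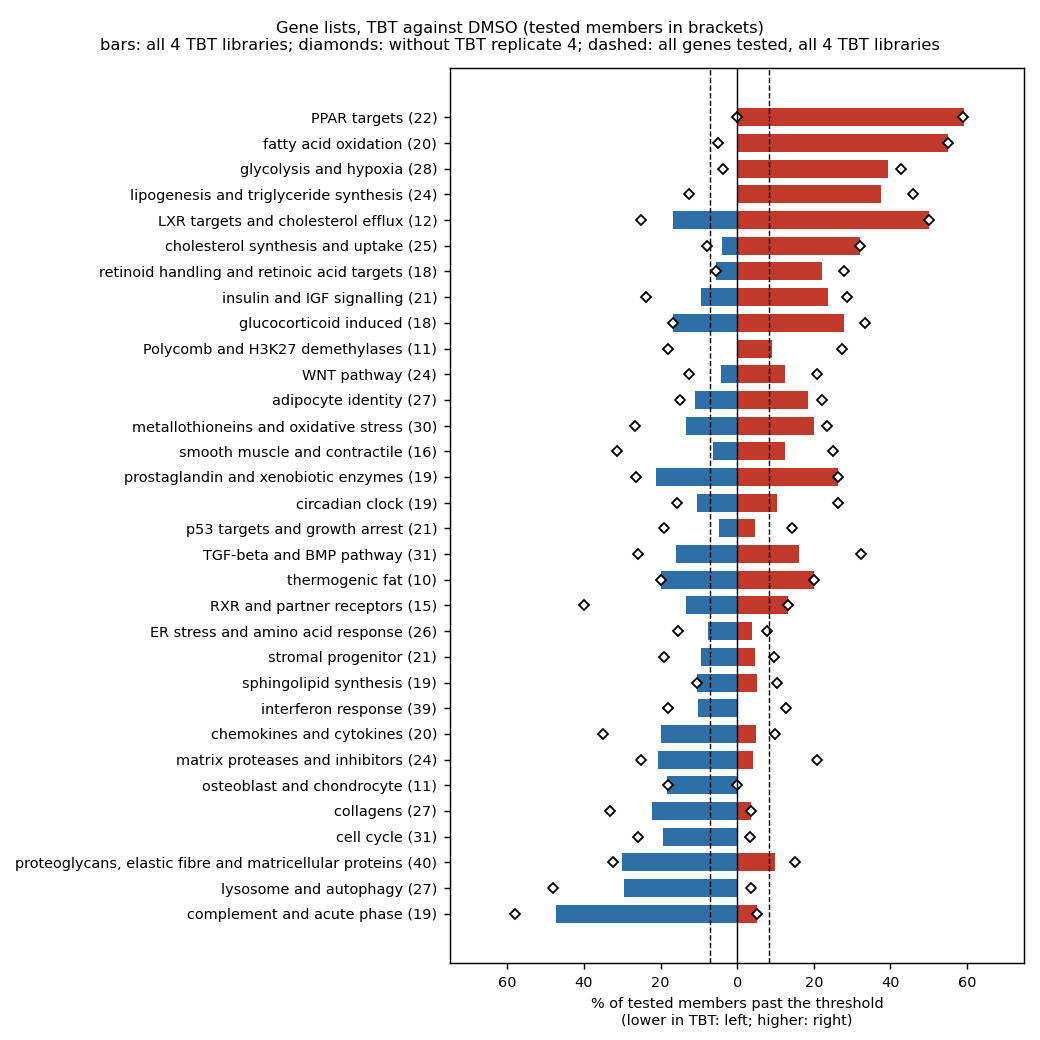
Percent of each list's tested members past the threshold, lower in TBT to the left and higher to the right, with all 4 TBT libraries (bars) and without TBT replicate 4 (diamonds). Dashed lines mark the 8.22% and 7.03% of all tested genes; PPAR targets reach 59.1% higher and complement and acute phase genes 47.4% lower.

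The genes that define fat cells did not move as 1 group. Of 27 tested, 5 rose (18.5%) and 3 fell (11.1%); with GC correction 9 rose and 3 fell, and 11 and 3 when TBT replicate 4 was also left out. Without TBT replicate 4 alone the count was 6 and 4, without DMSO replicate 3 it was 10 and 2, and without DMSO replicate 1, 2 or 4 or TBT replicate 2 or 3 the rises were 2 or 3. Those that fell include the hormone of fat cells. Adipoq, which encodes adiponectin, was at 10.2, 14.97, 7.05 and 10.4 CPM in DMSO and 3.57, 1.74, 1.93 and 1.96 CPM in TBT, and every TBT library was below every DMSO library. It fell by 2.17 ± 0.29 on the log2 scale (edgeR adjusted p = 0.000192, −2.08 without TBT replicate 4). Cfd, which encodes adipsin, a complement protease made by fat cells, was at 10.5, 17.5, 7.05 and 15.2 and 1.79, 3.86, 3.85 and 3.91 CPM and fell by 1.90 ± 0.31 (0.000993, −1.97 without TBT 4). Acsl1, which activates long-chain fatty acids, fell by 0.80 ± 0.22 (0.023, −0.77 without TBT 4), from 139, 134, 335 and 201 to 115, 115, 123 and 114 CPM. The Acsl1 call was lost without DMSO replicate 3 (−0.45), without TBT replicate 1 (−0.79), 2 (−0.79) or 3 (−0.83) and with the replicate block (−0.73).

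Other fat cell genes rose in the same libraries. Plin1, the coat protein that guards the fat droplet from lipases, was at 7.84, 16.1, 30.8 and 8.06 CPM in DMSO and 52.4, 53.5, 62.7 and 38.5 CPM in TBT and rose by 1.69 ± 0.31 (edgeR adjusted p = 0.00232, 1.81 without TBT replicate 4 and 2.28 without DMSO replicate 3). Car3, an abundant carbonic anhydrase of fat cells, rose by 1.41 ± 0.23 (0.00109, 1.48 without TBT 4), from 7.13, 6.32, 4.97 and 10.6 to 24.1, 15.4, 20.8 and 16.96 CPM. Cebpa (−0.04 ± 0.20), Plin2 (−0.12 ± 0.22), Lipe (0.43 ± 0.21), Retn (0.48 ± 0.31) and Slc2a4 (0.63 ± 0.48) did not pass, with edgeR adjusted p = 0.898, 0.728, 0.162, 0.298 and 0.38, and 0.867, 0.612, 0.372, 0.101 and 0.995 without TBT replicate 4. The values of Cebpa and Plin2 turned positive without DMSO replicate 3 (0.11 and 0.22), and that of Cebpa also with GC correction (0.28). Cidec, a droplet fusion protein, was at 0.69 ± 0.30 (0.124, 0.43 without TBT replicate 4) and passed without DMSO replicate 3 (1.12, 0.0112) and with GC correction (0.89); Lipe also passed with GC correction (0.61). Lep, which encodes leptin, was at or below 0.948 CPM in every library and was not tested.

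Genes of thermogenic fat were split as well. Of 10 tested, 2 rose and 2 fell (20% each), with the same counts without TBT replicate 4, and 1 rose with any library left out other than DMSO replicate 4 and TBT replicate 4. Elovl3, a fatty acid elongase of brown and cold-exposed fat, was at 4.28, 5.38, 11.3 and 4.74 CPM in DMSO and 0.715, 0.579, 0.856 and 0.87 CPM in TBT and fell by 3.11 ± 0.40 (edgeR adjusted p = 0.000145, −3.18 without TBT replicate 4). Cidea, a droplet protein rich in brown fat, was at 3.33, 6.08, 4.01 and 3.48 and 0.894, 0.772, 1.497 and 1.52 CPM and fell by 1.84 ± 0.33 (0.0019, −1.97 without TBT 4). Groups did not overlap for either gene. Ebf2, a transcription factor of brown fat precursors, rose by 1.32 ± 0.30 (0.00853, 1.32 without TBT 4). Ucp1, the uncoupling protein itself, was listed at 0 in all TBT libraries and at 0, 1.17, 0.138 and 0.158 CPM in DMSO, and was not tested.

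Rosiglitazone libraries, compared with the same DMSO libraries, differed from this for several of these genes, and the contrast of TBT with ROSI tests that difference. For Elovl3 the log2 fold change against DMSO was −3.11 ± 0.40 in TBT and 2.49 ± 0.25 in ROSI, and TBT lay −5.60 ± 0.35 from ROSI (edgeR adjusted p = 3.68e-08). For Adipoq the values were −2.17 ± 0.29 and 0.34 ± 0.24, differing by −2.51 ± 0.28 (1.14e-05), for Cidea −1.84 ± 0.33 and 0.80 ± 0.26, differing by −2.64 ± 0.31 (1.65e-05), and for Acsl1 −0.80 ± 0.22 and 2.08 ± 0.22, differing by −2.88 ± 0.23 (4.66e-07). In these 4 genes TBT was lower than ROSI. Car3 went the other way, with 1.41 ± 0.23 in TBT and −1.24 ± 0.27 in ROSI, a difference of 2.65 ± 0.26 (2.5e-06), as did Cpt1a with 1.13 ± 0.19 and −0.58 ± 0.20, a difference of 1.71 ± 0.20 (1.58e-05). For Plin1 and Plin4 the contrast did not pass (−0.53 ± 0.29 and −0.15 ± 0.16; 0.182 and 0.508). Without TBT replicate 4 the contrast with ROSI gave edgeR adjusted p = 9.09e-09, 7.69e-06, 8.29e-06, 9.9e-08, 4.09e-07, 1.32e-06, 0.25 and 0.397 for the 8 genes in the order given. TBT also lay below ROSI for other fat cell genes. These were Plin2 (−2.25), Slc2a4 (−1.70), Cidec (−1.59), Cebpa (−1.36), Fabp4 (−1.32), Retn (−1.09), Cd36 (−1.08), Cfd (−1.08) and Lipe (−0.84). Their edgeR adjusted p ran from 2e-06 to 0.0439, and each also passed without TBT replicate 4. For Fabp5, Pdk4 and Pparg the contrast did not pass in either fit.

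**Figure D4:**
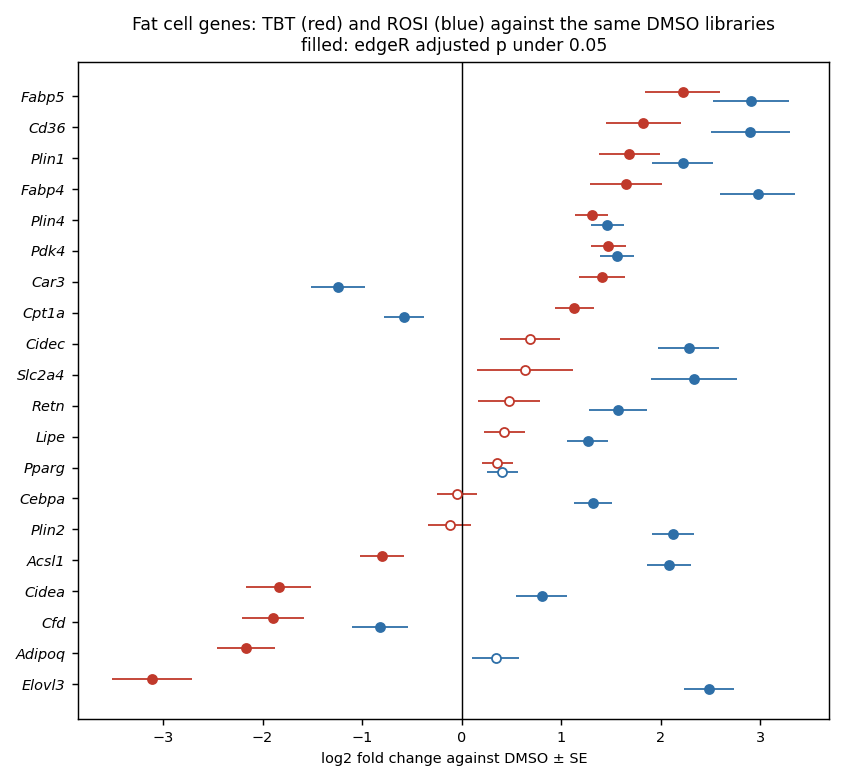
Log2 fold change ± SE of 20 fat cell genes against the same DMSO libraries, for TBT (red) and ROSI (blue), n = 4 libraries per group; filled points passed the edgeR threshold. Fabp5, Plin1 and Pdk4 lie to the right for both ligands, while Elovl3, Cidea and Acsl1 lie to the left for TBT and to the right for ROSI.

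The summed level of the 8 markers set for fat cells was 182 to 556 CPM in DMSO and 586 to 920 CPM in TBT (681 in TBT replicate 4), and all 8 were tested: Plin1 and Fabp4 rose, and Adipoq and Cfd fell. Fabp4 (63.8 to 314 CPM in DMSO, 364 to 696 in TBT) and Cidec (48.7 to 162 and 115 to 222) made up most of each sum. The sums therefore do not show a rise of the whole marker set. The 9 stromal markers summed to 3800 to 4540 CPM in DMSO and 3060 to 3680 CPM in TBT. The macrophage list of 14 genes summed to 26.4 to 31.4 CPM in DMSO and 20 to 36.1 CPM in TBT with Tyrobp at 0. The endothelial list of 10 summed to 9.27 to 11.5 and 5.79 to 8.98 CPM with Tie1 and Cldn5 at 0, and the lymphoid and granulocyte list of 13 to 1.90 to 4.21 and 0.386 to 2.14 CPM with Cd79b and Nkg7 at 0. The erythroid list of 9 summed to 12.9 to 24.5 and 8.05 to 16.4 CPM; its 1 tested gene, Alas2, was at −0.76 ± 0.24 (edgeR adjusted p = 0.0417; −0.59 and 0.053 without TBT replicate 4), a call also lost without DMSO replicate 1 (−0.64), 3 (−0.76) or 4 (−0.69) or TBT replicate 1 (−0.78) or 3 (−0.71), with the replicate block, with GC correction (−0.63) and in the fit of the 8 libraries. The osteoclast list of 7 summed to 5.15 to 9.74 and 3.04 to 6.43 CPM, and its 1 tested gene did not pass. The part of a changed share of fat cells in the results was not tested.

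Lipid synthesis genes rose in 9 of 24 tested (37.5%) and fell in 0, and in 11 and 3 without TBT replicate 4; the other 15 did not pass with all libraries. Scd1, which makes monounsaturated fatty acids, was at 1635, 1893, 4151 and 1589 CPM in DMSO and 10890.0, 12603, 8974 and 13048 CPM in TBT. DMSO replicate 3 was the highest DMSO library, and all TBT libraries were at least 2-fold above it. Scd1 rose by 2.30 ± 0.27 (edgeR adjusted p = 5.59e-05, 2.24 without TBT replicate 4). Lpin1, which makes the diacylglycerol for triglycerides, rose by 1.13 ± 0.16 (0.000343, 1.16 without TBT 4), Scd2, a further desaturase, by 1.07 ± 0.16 (0.000474, 0.97 without TBT 4) and Elovl5, an elongase of polyunsaturated fatty acids, by 0.72 ± 0.15 (0.0054, 0.69 without TBT 4). The median of the list was 0.40.

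Sterol synthesis and uptake genes rose in 8 of 25 tested (32%) and fell in 1 (4%), 8 and 2 without TBT replicate 4, and 5 rose without DMSO replicate 1, DMSO replicate 2 or TBT replicate 3. Idi1, an enzyme of isoprenoid synthesis, was at 5.46, 5.15, 7.32 and 6.80 CPM in DMSO and 18.2, 16.2, 15.8 and 16.3 CPM in TBT, with the TBT libraries close together and more than 2-fold above DMSO. It rose by 1.41 ± 0.20 (edgeR adjusted p = 0.000329, 1.43 without TBT replicate 4) and lay 1.24 ± 0.20 above ROSI (0.00028; 1.26 and 0.000128 without TBT replicate 4). Insig1, the sterol sensor that holds SREBP back and whose promoter is printed above, rose by 1.15 ± 0.18 (0.000775, 1.22 without TBT 4). Scap, which escorts SREBP to its activating proteases, fell by 0.79 ± 0.13 (0.00123, −0.82 without TBT 4).

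Fatty acid oxidation genes rose in 11 of 20 tested (55%) and fell in 0, against 11 and 1 without TBT replicate 4; 11 also rose with each other library left out in turn. Their median was 0.56. Crat, which moves acetyl groups to carnitine, rose by 1.07 ± 0.15 (edgeR adjusted p = 0.000336, 1.07 without TBT replicate 4). Ech1 (1.08 ± 0.17, 0.000667; 0.93) and Decr1 (0.72 ± 0.11, 0.000668; 0.79), which handle unsaturated fatty acids, and Etfa, an electron carrier of oxidation (0.97 ± 0.16, 0.00119; 1.02), rose in all TBT libraries. Slc25a34, a mitochondrial carrier outside that list, was at 0.713, 0.702, 2.90 and 1.26 CPM in DMSO and 12.5, 11.2, 7.70 and 6.31 CPM in TBT and rose by 2.61 ± 0.36 (0.000254; 2.76; 3.30 without DMSO replicate 3).

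Glycolysis and hypoxia genes rose in 11 of 28 tested (39.3%) and fell in 0, and in 12 and 1 without TBT replicate 4. The median was 0.69. Pgam1 and Pgk1, enzymes of glycolysis, rose by 1.39 ± 0.21 and 1.44 ± 0.24 (edgeR adjusted p = 0.000499 and 0.00119; 1.48 and 1.51 without TBT replicate 4). Pdk1, the hypoxia-induced brake on pyruvate oxidation, rose by 1.38 ± 0.24 (0.00166, 1.47 without TBT 4), and Egln1, an oxygen sensor, by 1.22 ± 0.24 (0.00368, 1.23 without TBT 4). Pgk1 was at 141, 268, 223 and 113 CPM in DMSO and 497, 518, 558 and 441 CPM in TBT, so the DMSO libraries spread over more than 2-fold while the TBT libraries lay close together.

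Insulin and growth factor signalling genes rose in 5 of 21 tested (23.8%) and fell in 2 (9.52%), and in 6 and 5 without TBT replicate 4; with any other library left out, 0 or 1 fell, and with GC correction 4 rose and 0 fell. Igfbp3, the main carrier of insulin-like growth factors, was at 173, 285, 221 and 157 CPM in DMSO and 539, 595, 562 and 464 CPM in TBT. All TBT libraries lay above all DMSO libraries, and the rise was 1.37 ± 0.18 (edgeR adjusted p = 0.000187, 1.45 without TBT replicate 4). Irs1, the docking protein of the insulin receptor, rose by 1.10 ± 0.16 (0.000372, 1.06 without TBT 4), Pde3b, which carries the anti-lipolytic effect of insulin, by 0.81 ± 0.15 (0.0027, 0.86 without TBT 4), and Foxo1, a transcription factor that insulin restrains, by 0.65 ± 0.12 (0.00271, 0.71 without TBT 4). Ppp1r3c, which targets a phosphatase to glycogen, was among the 10 smallest p-values and rose by 1.67 ± 0.16 (8.39e-06, 1.66 without TBT 4), from 47.3, 59.2, 80.95 and 77.4 to 200.2, 244, 181 and 223 CPM.

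**Figure D5:**
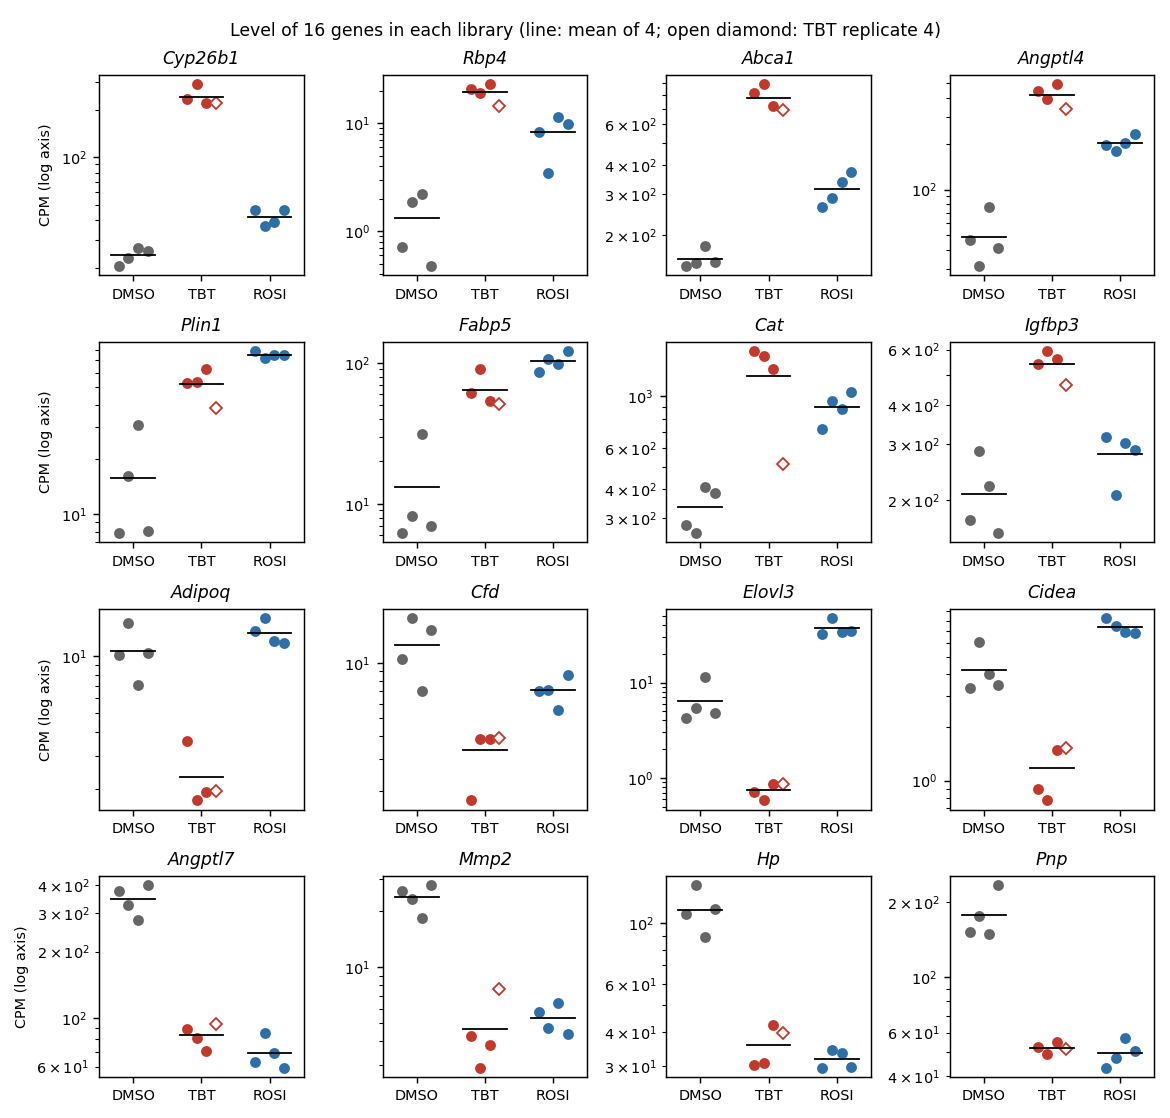
CPM on a log axis of 16 genes in each DMSO, TBT and ROSI library, with a line at the mean of 4; the open diamond is TBT replicate 4. Cat in TBT replicate 4 lies near the DMSO level, while Cyp26b1, Abca1, Adipoq and Pnp in that library lie with the other TBT libraries.

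Antioxidant and metal-response genes moved both ways, with 6 of 30 tested higher (20%) and 4 lower (13.3%), and 7 and 8 without TBT replicate 4. Without DMSO replicate 2 or TBT replicate 1, 2 or 3, 2 were lower. Cat, the catalase of peroxisomes, was at 282, 259, 410.3 and 387 CPM in DMSO and 1562, 1477, 1306 and 514 CPM in TBT. TBT replicates 1 to 3 were more than 3-fold above every DMSO library, and replicate 4 was above them by far less. Cat rose by 1.86 ± 0.27 (edgeR adjusted p = 0.000343), and by 2.13 ± 0.17 without TBT replicate 4 (1.17e-07). Ephx2, the soluble epoxide hydrolase, rose by 2.04 ± 0.38 (0.00257, 2.07 without TBT replicate 4 and 3.05 without DMSO replicate 3, which held 21.3 CPM against 4.27 to 4.91 in the other DMSO libraries). Slc30a1, the zinc exporter, rose by 0.79 ± 0.15 (0.00278, 0.83 without TBT 4).

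The metallothioneins, metal-binding proteins, parted. Mt2 was at 389, 432, 301 and 288 CPM in DMSO and 163, 166, 178 and 239 CPM in TBT and fell by 0.92 ± 0.19 (edgeR adjusted p = 0.00528, −1.04 without TBT replicate 4). Mt1 was at 132, 170.1, 108 and 97.2 and 103, 137, 141 and 114 CPM, with overlapping groups and a difference of −0.03 ± 0.18 (0.914; 0.02 and 0.946 without TBT replicate 4) whose sign turned under several alternatives given in the closing section. The difference between the responses of Mt1 and Mt2 was not tested.

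Enzymes of prostaglandin and xenobiotic handling rose in 5 of 19 tested (26.3%) and fell in 4 (21.1%), and the counts were 5 and 5 without TBT replicate 4, while 3 rose without DMSO replicate 3 and 2 without DMSO replicate 4. Cyp1b1, a cytochrome P450 of the aryl hydrocarbon pathway, rose by 0.93 ± 0.19 (edgeR adjusted p = 0.00439, 1.11 without TBT replicate 4), from 778, 685, 795 and 580.5 to 1597, 1451, 1504 and 844 CPM, and replicate 4 was the lowest of the TBT libraries. Por, which passes electrons to cytochromes P450, rose by 0.79 ± 0.13 (0.000885, 0.77 without TBT 4). The flavin monooxygenase genes Fmo1 and Fmo2 both fell, Fmo1 at −0.84 ± 0.16 (0.00291, −0.78 without TBT 4) and Fmo2 at −0.78 ± 0.13 (0.000885, −0.76 without TBT 4).

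Complement and acute phase genes fell in 9 of 19 tested (47.4%) and rose in 1 (5.26%), and in 11 and 1 without TBT replicate 4, with a median of −0.56; without DMSO replicate 4, 2 rose. With a correction for GC content 6 fell and 1 rose. Hp, haptoglobin, was at 108, 138, 88.96 and 113 CPM in DMSO and 30.2, 30.7, 42.4 and 39.6 CPM in TBT, so every TBT library was more than 2-fold below every DMSO library. It fell by 1.65 ± 0.15 (edgeR adjusted p = 8.38e-06, −1.69 without TBT replicate 4). Serping1, the inhibitor of the first complement component, fell by 1.29 ± 0.15 (5.79e-05, −1.32 without TBT 4), C1ra, a protease of that component, by 1.004 ± 0.16 (0.000971, −1.11 without TBT 4) and Lcn2, an iron-scavenging lipocalin, by 1.19 ± 0.19 (0.00085, −1.40 without TBT 4). In ROSI, Serping1 and C1ra were lower still, with TBT above ROSI by 1.75 ± 0.16 and 1.15 ± 0.17 (1.28e-06 and 0.00015; 1.71 and 1.04 without TBT replicate 4). For Lcn2, TBT lay below ROSI (−0.68 ± 0.19, edgeR adjusted p = 0.0155), and for Hp the contrast did not pass (0.16 ± 0.16, 0.466). Without TBT replicate 4 these contrasts were −0.90 (0.000185) and 0.12 (0.602). Cd59a, which shields cells from complement, rose against DMSO by 0.87 ± 0.20 (0.01, 1.002 without TBT 4).

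Chemokine and cytokine genes fell in 4 of 20 tested (20%) and rose in 1 (5%), in 7 and 2 without TBT replicate 4, and in 6 and 2 with GC correction; the rise was lost without DMSO replicate 1 or 2 or TBT replicate 3. Il1rl1, the interleukin 33 receptor, fell by 1.43 ± 0.17 (edgeR adjusted p = 5.79e-05, −1.45 without TBT replicate 4), Il1rn, the natural blocker of the interleukin 1 receptor, by 1.19 ± 0.19 (0.00098, −1.03 without TBT 4), and Ccl2, the monocyte attractant, by 1.77 ± 0.40 (0.00912, −1.53 without TBT 4). Ccl2 stood at 25.4, 21.5, 11.5 and 27.02 CPM in DMSO and 4.83, 6.75, 10.5 and 2.83 CPM in TBT, near each other only for DMSO replicate 3 and TBT replicate 3. Of 39 interferon response genes, 0 rose and 4 fell (10.3%) with all libraries (edgeR, adjusted), while 5 rose and 7 fell without TBT replicate 4, and 1 rose and 1 fell without DMSO replicate 1. Without DMSO replicate 2 or TBT replicate 2 or 3, 1 or 2 fell. Zbp1, a sensor of Z-form nucleic acid, fell by 1.41 ± 0.35 (0.0135, −1.42 without TBT 4), with overlapping groups, and was lost without DMSO replicate 1 (−0.97, 0.0609).

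Of 27 collagen genes tested, 1 rose (3.7%) and 6 fell (22.2%), and 1 and 9 without TBT replicate 4; 3 fell with GC correction, and 3 fell without DMSO replicate 1, DMSO replicate 4 or TBT replicate 2. Col24a1, a minor fibrillar collagen, fell by 1.70 ± 0.27 (edgeR adjusted p = 0.000885, −1.79 without TBT replicate 4) and Col14a1, which binds collagen fibrils, by 1.27 ± 0.27 (0.00682, −1.34 without TBT 4). Col15a1, a collagen of basement membranes, rose by 1.79 ± 0.41 (0.00949; 1.77; 2.66 without DMSO replicate 3). Of 40 proteoglycan, elastic fibre and matricellular genes, 4 rose (10%) and 12 fell (30%), 6 and 13 without TBT replicate 4, and 4 and 6 with GC correction. Thbs3, a thrombospondin, fell by 2.14 ± 0.34 (0.000885, −2.13 without TBT 4), Nov, a matricellular CCN protein, by 1.47 ± 0.27 (0.00241, −1.39 without TBT 4), while Postn, periostin, rose by 1.23 ± 0.21 (0.00148, 1.39 without TBT 4).

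Of 24 matrix proteases and inhibitors tested, 5 fell (20.8%) and 1 rose (4.17%). Without TBT replicate 4, 6 fell and 5 rose, while 3 fell without TBT replicate 1 or 3 and 2 rose without DMSO replicate 2. Mmp2, the gelatinase of stromal cells, was at 25.7, 23.2, 18.5 and 27.7 CPM in DMSO and 4.29, 2.89, 3.85 and 7.61 CPM in TBT. The groups were far apart, and replicate 4 was the highest TBT library. Mmp2 fell by 2.35 ± 0.25 (edgeR adjusted p = 2.6e-05, −2.66 without TBT replicate 4). Timp1, an inhibitor of such proteases, fell by 1.62 ± 0.29 (0.00192, −2.09 without TBT 4), Mmp16, a membrane-bound protease, by 0.997 ± 0.14 (0.000329, −1.01 without TBT 4), and Adamts15 rose by 0.70 ± 0.16 (0.0083, 0.60 without TBT 4).

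Of 11 bone and cartilage genes tested, 0 rose and 2 fell (18.2%), with the same counts without TBT replicate 4; Spp1, osteopontin, fell by 1.07 ± 0.20 (edgeR adjusted p = 0.00262, −0.88 without TBT replicate 4). Of 16 smooth muscle genes, 2 rose (12.5%) and 1 fell (6.25%), and 4 and 5 without TBT replicate 4, while 0 fell with GC correction or any other library left out and 1 rose without DMSO replicate 1 or 3 or TBT replicate 1, 2 or 3. Myh11, smooth muscle myosin, was at 3.09, 8.66, 4.97 and 3.32 CPM in DMSO and 30.2, 20.7, 22.5 and 9.79 CPM in TBT and rose by 2.08 ± 0.33 (0.000787, 2.32 without TBT 4), 3.05 ± 0.36 above ROSI (1.59e-05; 3.29 and 1.07e-07 without TBT replicate 4). TBT replicate 4 lay just above the highest DMSO library. Fhl1, a LIM protein of muscle outside that list, rose by 2.14 ± 0.22 (2.02e-05, 2.27 without TBT 4), from 6.18, 8.19, 5.11 and 4.74 to 32.3, 25.9, 26.95 and 19.4 CPM. Of 21 stromal progenitor genes, 1 rose (4.76%) and 2 fell (9.52%), shares near those of all genes, 2 and 4 without TBT replicate 4 and 2 and 2 with GC correction (1 fell without DMSO replicate 1 or 2 or TBT replicate 1, 2 or 3). Pdgfra, the platelet-derived growth factor receptor of progenitors, fell by 0.81 ± 0.15 (0.00235, −0.86 without TBT 4), and Wisp2, a secreted CCN protein, rose by 0.74 ± 0.16 (0.00746, 0.69 without TBT 4).

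Of 24 WNT pathway genes, 3 rose (12.5%) and 1 fell (4.17%), and 5 and 3 without TBT replicate 4, and 1 rose without DMSO replicate 1 or TBT replicate 1 or 3. The secreted Dkk proteins went apart: Dkk2 rose by 1.23 ± 0.24 (edgeR adjusted p = 0.00416, 1.42 without TBT replicate 4) and Dkk3 fell by 1.38 ± 0.24 (0.00172, −1.20 without TBT 4). Of 31 TGF-beta and BMP pathway genes, 5 rose and 5 fell (16.1% each), and 10 and 8 without TBT replicate 4, while 1 to 3 fell with any other library but TBT replicate 2 left out. Id1 and Id3, targets of BMP signalling, rose by 1.05 ± 0.24 and 0.91 ± 0.21 (0.00991 and 0.00881; 1.14 and 0.97), and Bmp1, the protease that trims procollagen, fell by 1.09 ± 0.15 (0.00025, −1.22 without TBT 4).

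Lysosome genes fell in 8 of 27 tested (29.6%) and rose in 0, in 13 and 1 without TBT replicate 4, in 5 and 0 without TBT replicate 2, and in 9 and 0 with GC correction. Ctsd, the protease cathepsin D, was at 474, 539.5, 467 and 473 CPM in DMSO and 292, 269, 310.2 and 326 CPM in TBT and fell by 0.71 ± 0.11 (edgeR adjusted p = 0.000885, −0.74 without TBT replicate 4). Hexa, a hexosaminidase, fell by 0.66 ± 0.16 (0.0107, −0.84 without TBT 4) and Mcoln1, a calcium channel of the lysosome, by 0.88 ± 0.21 (0.0101, −1.07 without TBT 4). Of 19 sphingolipid synthesis genes, 1 rose (5.26%) and 2 fell (10.5%), shares near those of all genes, and 2 and 2 without TBT replicate 4 (0 rose without TBT replicate 3, and 1 fell with most other libraries left out). Sphk1, which makes sphingosine 1-phosphate, fell by 1.52 ± 0.20 (0.000192, −1.80 without TBT 4).

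Cell cycle genes fell in 6 of 31 tested (19.4%) and rose in 0, and in 8 and 1 without TBT replicate 4; 1 rose without TBT replicate 2, and 3 fell without DMSO replicate 1, DMSO replicate 4 or TBT replicate 3. Tyms and Tk1, which make thymidine nucleotides, fell by 0.96 ± 0.15 and 1.34 ± 0.25 (edgeR adjusted p = 0.000668 and 0.00291; −0.99 and −1.37 without TBT replicate 4). Ccnd1, cyclin D1, fell by 0.80 ± 0.16 (0.00381, −0.80 without TBT 4). Tyms was at 31.1, 23.6, 26.5 and 27.8 CPM in DMSO and 13.6, 14.3, 12.8 and 15.4 CPM in TBT, with no overlap.

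Several of the smallest p-values and largest falls were in genes outside the lists. Pnp, purine nucleoside phosphorylase, was at 153, 177, 149 and 235 CPM in DMSO and 52.7, 49.2, 54.98 and 51.5 CPM in TBT, with TBT libraries within a narrow band. It fell by 1.78 ± 0.15 (edgeR adjusted p = 2.06e-06, −1.76 without TBT replicate 4), and its near-identical paralog Pnp2 by 2.30 ± 0.20 (3.62e-06, −2.54 without TBT 4); reads can be split between these copies, so their separate values are uncertain. Angptl7, a secreted angiopoietin-like protein, was at 378, 325, 278 and 402 and 89.2, 81.3, 70.4 and 93.9 CPM and fell by 2.05 ± 0.15 (3.82e-07, −2.09 without TBT 4), the opposite direction to Angptl4. Tspan11, a tetraspanin, fell by 2.22 ± 0.16 (3.4e-07, −2.26 without TBT 4) and Gabra3, a subunit of the GABA-A receptor, by 3.04 ± 0.33 (3.39e-05, −2.996 without TBT 4). Rosiglitazone did not differ detectably from TBT for Pnp (0.06 ± 0.15, 0.781), Angptl7 (0.27 ± 0.15, 0.196), Tspan11 (−0.32 ± 0.17, 0.179) or Gabra3 (−0.01 ± 0.40, 0.989), which does not show that the ligands act alike. Without TBT replicate 4 the contrasts were 0.08, 0.22, −0.37 and 0.02 (0.731, 0.275, 0.125 and 0.972). For Pnp2 the contrast was −0.38 ± 0.21 (edgeR adjusted p = 0.206), and it passed without TBT replicate 4 (−0.62, 0.0164).

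Agt and Agtr2, outside the lists too, were also among the largest changes. Agt, angiotensinogen, was at 36.1, 53.8, 87.6 and 28.3 CPM in DMSO and 162, 181, 207 and 411 CPM in TBT and rose by 2.21 ± 0.33 (edgeR adjusted p = 0.000534, 1.84 without TBT replicate 4, its highest library). Agtr2, a receptor of angiotensin II, fell by 2.01 ± 0.27 (0.000238, −2.09 without TBT 4). Other large falls were Cd38, which breaks down NAD, at −2.02 ± 0.29 (0.000418, −2.01 without TBT 4), Egfl6, a secreted EGF-like protein, at −2.001 ± 0.30 (0.000476, −1.82 without TBT 4) and 9230105E05Rik at −1.94 ± 0.39 (0.00451, −2.32 without TBT 4). Of 3 further gene models, 4930467E23Rik fell by 2.12 ± 0.33 (0.000787, −2.08 without TBT 4), Gm21119 fell by 2.10 ± 0.27 (0.000179, −2.004 without TBT 4) and Gm15319 fell by 2.04 ± 0.30 (0.000411, −1.93 without TBT 4). These 3 are uncertain, since such gene models can share reads. Large rises were Fam107a, an actin-binding stress protein, by 2.96 ± 0.28 (8.39e-06, 3.06 without TBT 4), Aldh3b2, an aldehyde dehydrogenase, by 2.14 ± 0.30 (0.00029, 2.27 without TBT 4), 2610528A11Rik by 3.29 ± 0.55 (0.00109, 3.45 without TBT 4) and Timm8a1, a mitochondrial import protein, by 2.12 ± 0.39 (0.00271, 2.18 without TBT 4).

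Some genes changed most when TBT replicate 4 was left out. Mir6236, a short annotated RNA, was at 1373, 1667, 806 and 535 CPM in DMSO and 21.98, 19.1, 40.003 and 1419.6 CPM in TBT; its log2 difference was −1.55 ± 1.004 with all libraries (edgeR adjusted p = 0.299) and −5.33 ± 0.58 without TBT replicate 4 (5.6e-06). Rn45s was at −1.002 ± 0.73 (0.356) and −2.94 ± 0.47 (0.000175). The same pattern, low in TBT replicates 1 to 3 and at or above the DMSO level in replicate 4, held for Vps72, a chromatin protein, at 15.4, 18.02, 17.1 and 13.4 CPM in DMSO and 2.14, 2.70, 2.57 and 19.6 CPM in TBT. Vps72 was at −1.28 ± 0.51 (0.0961) and −2.67 without replicate 4 (1.16e-05), Ap1s1, an adaptor of vesicle coats, at −0.72 ± 0.65 (0.469) and −2.38 (0.00166), Sepw1, a selenoprotein, at −1.16 ± 0.46 (0.0923) and −2.30 (1.34e-05), and Grcc10 at −0.64 ± 0.48 (0.373) and −1.83 (0.000132). In the other direction, Pdgfa, a growth factor, was at 7.84, 11.2, 8.84 and 15.6 CPM in DMSO and 26.8, 29.9, 22.5 and 5.65 CPM in TBT, and went from 0.96 ± 0.35 (0.0738) to 1.28 (0.000392). Sparcl1, a matricellular protein, went from 1.24 ± 0.43 (0.059) to 1.44 (0.0125). None of these 8 genes passed the edgeR test above with all libraries. With no filter on low counts, Mir6236, Vps72, Sepw1, Pdgfa and Sparcl1 passed with all libraries kept, as did Mir6236, Vps72 and Sepw1 with limma on the deposited log2 values, and Sparcl1 with DESeq2 and in the fit of the 8 libraries.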

How the data were processed

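The authors deposited read counts per gene symbol, not normalized, for 12 libraries, and the same genes as regularized-log (log2) values. The submitters' processing notes name mm9 as the build and FastQC, SAMtools and DESeq2 as tools. Aligner, counter and annotation: not given in the sources used here. Libraries were depleted of ribosomal RNA, per the labels' protocols, and single non-directional 50 nt reads came from a SOLiD sequencer.

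Counts were tested in R 4.3.3 with edgeR 4.0.16: filterByExpr by 3 groups, TMM scaling, 1 quasi-likelihood fit of all 12 libraries without covariates, and Benjamini-Hochberg adjustment over 12323 genes with a threshold of 0.05. SE is the log2 fold change over the root of F. Alternatives used DESeq2 1.42.0 and limma 3.58.1. Leaving out each library, GC-corrected offsets, scalings and filters were tried. The fit was tested on simulated data. No libraries of a group were copies (lowest chi-square over degrees of freedom 4.66).

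The 32 gene lists, members and rules were chosen with earlier results of these data known. Named genes were the 15 largest changes per direction among called genes with separate groups and a mean of at least 5 CPM, the 10 smallest p-values, up to 4 members per list with the smallest p, genes fixed by name, and those that turned on TBT replicate 4. Some genes of that rule are counted but not named. Acsl1, Arl4c, Cd36, Cd59a, Cpt1a, Mylip and Plin2 were named after their values were seen.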

Additional observations from a re-analysis of the deposited data

Results flagged for a closer look

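Among 291 groups of 4 libraries examined, 32 had a highest or lowest library whose gap to the next was too large a share of the range by Dixon's test at 95%. Chance flags about 1 in 20 groups. In 13 the library was TBT replicate 4, in 9 DMSO replicate 3, in 3 each DMSO replicate 2 and TBT replicate 1, in 2 DMSO replicate 4, and in 1 each TBT replicates 2 and 3. The genes examined were those named here, and some were named because they turned on TBT replicate 4. Among these, Mir6236, Rn45s, Ap1s1, Vps72, Grcc10 and Sepw1 were flagged in that library. Its tally is thus raised by the choice of genes and is no independent sign that it lies apart.

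In TBT replicate 4, Rn45s took 6.85% of counts (69130.0 CPM, against 4274 to 7055 CPM in the other TBT libraries), and Mir6236 was at 1420.0 CPM. Vps72 was at 19.6 CPM there, Ap1s1 at 23.9, Sepw1 at 23.3, Grcc10 at 30.9, Rarg at 29.6, Lcn2 at 202.0, Lipe at 38.9 and Ech1 at 86.8, each the highest TBT value. Foxo1 at 408 CPM and Spp1 at 118 were the lowest TBT values.

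In DMSO replicate 3, Cd36 was at 388 CPM against 84.2 to 96.1 in the other DMSO libraries. The highest DMSO values there were also those of Abca1 (180.3 CPM), Abcg1 (33.0), Crat (107), Elovl3 (11.3), Ephx2 (21.3), Fabp5 (31.2) and Scd1 (4151), and the lowest that of Scap (40.8).

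The remaining flagged values, in CPM, were Acsl1 in TBT replicate 3 (123), Adipoq (3.57), Cfd (1.79) and Gm15319 (4.29) in TBT replicate 1, Ephx2 in TBT replicate 2 (44.8), Arl4c (19.2), Ctsd (539.5) and Ucp1 (1.17) in DMSO replicate 2, and Il1rn (460.4) and Tspan11 (40.8) in DMSO replicate 4.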

How the results depend on the processing

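Of 115 named genes past the threshold, 107 kept their call at 0.05 and their direction under every alternative fit, and 8 lost it under at least 1. Another 16 named genes, not past the threshold, passed under at least 1. The stricter cutoffs of 0.01 and 2-fold were not applied to named genes here. Many of these genes were named for a small p or a large fold, which favours a kept call. The count of genes past the threshold was 1879; it was 1199 with only the DMSO and TBT libraries, 3492 with GC-corrected offsets without TBT replicate 4, 574 at an adjusted p of 0.01 and 509 at 2-fold or more as well. Leaving out 1 library in turn gave 1019 to 4124. Counts within 1.5 times of 1879 came from DESeq2 size factors (1891), upper-quartile factors (1891, split as given above), DESeq2 (2331), no filter (2516), a mean of 5 CPM (1668), GC-corrected offsets (1619, of which 1362 were among the 1879), the counts without Rn45s (1885) and limma on the deposited log2 values, chosen after seeing the data (2042). With the replicate number as a block the count was 1160; the labels give no source for a pairing, same-numbered libraries correlated at 0.08, −0.16, −0.06 and −0.25, and TBT replicates 1 to 3 correlated best with DMSO replicate 4. Uncalled values that changed sign, in log2, were Cebpa (0.006 with the replicate block, 0.28 with GC correction, 0.39 with that and without TBT replicate 4, 0.11 without DMSO replicate 3, 0.00796 with limma, lowest −0.18 without DMSO replicate 1), Kdm6b (0.14 and 0.22 in those GC fits, 0.0096 without TBT replicate 1, lowest −0.32 without TBT replicate 3), Mt1 (0.083 and 0.18 in the GC fits, 0.14 without DMSO replicate 2, 0.047 without TBT replicate 1, 0.020 without TBT replicate 4, lowest −0.14 without DMSO replicate 4), Plin2 (0.22 without DMSO replicate 3, lowest −0.30 without DMSO replicate 4) and Rxra (0.069 and 0.080 in the GC fits). The causes were not tested. Depth limits the low genes: Lep, Ucp1 and Rxrg had too few counts to be tested.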

Other observations

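Mthfd2, a mitochondrial enzyme of one-carbon metabolism, was at 61.1, 52.9, 71.3 and 46.9 CPM in DMSO and 138, 180.1, 109.5 and 95.7 CPM in TBT and rose by 1.17 ± 0.19 on the log2 scale (edgeR adjusted p = 0.000944; 1.31 without TBT replicate 4). Phgdh, the first enzyme of serine synthesis, was at 11.2, 8.19, 6.91 and 5.37 and 1.61, 2.32, 3.85 and 3.48 CPM and fell by 1.48 ± 0.35 (0.0115; −1.58). Both belong to a list of 26 genes of endoplasmic reticulum stress and amino acid response of which 1 rose (3.85%) and 2 fell (7.69%), shares near or below those of all genes; 2 rose and 4 fell without TBT replicate 4, 6 fell without TBT replicate 2, and 1 fell without DMSO replicate 1 or 3 or TBT replicate 1 or 3. In ROSI, Phgdh averaged 11.5 ± 4.53 CPM (SD, n = 4), and TBT lay −2.04 ± 0.34 from it (0.000477; −2.16 and 0.000177 without TBT replicate 4). Of 19 clock genes, 2 rose and 2 fell (10.5% each), and 5 and 3 without TBT replicate 4; 1 rose without DMSO replicate 2 or 4 or TBT replicate 3, and 1 fell without DMSO replicate 1, 2 or 3 or TBT replicate 1, 2 or 3. Of 21 p53 target and growth arrest genes, 1 rose and 1 fell (4.76% each), 3 and 4 without TBT replicate 4 and 2 and 1 with GC correction; 0 fell without DMSO replicate 2 or TBT replicate 1, 2 or 3. Of 18 genes induced by glucocorticoids, 5 rose (27.8%), Angptl4 and Pdk4 among them, and 3 fell (16.7%), Mt2 and Lcn2 among them, and the counts were 6 and 3 without TBT replicate 4; 3 rose without DMSO replicate 1 or 3 or TBT replicate 2 or 3.

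Genes of Polycomb repression, the system that places methyl groups on lysine 27 of histone H3, gave 1 rise in 11 tested (9.09%) with all libraries, 3 rises and 2 falls without TBT replicate 4 and no call with GC correction and all libraries. Suz12, a core subunit, rose by 0.78 ± 0.22 (edgeR adjusted p = 0.0238; 0.77 without TBT replicate 4), with overlapping groups. Its call was lost without DMSO replicate 1 (0.80) or 4 (0.64), without TBT replicate 1 (0.64) or 3 (0.72), with the replicate block (0.77), in the fit of the 8 libraries (0.77) and with GC correction (0.62). Eed, a further subunit, was at 0.49 ± 0.19 (0.0923) and 0.69 without TBT replicate 4 (0.00216), and passed with no filter on low counts (0.49). Ezh2, the methyltransferase, was at 0.19 ± 0.14 (0.383; 0.24 and 0.226 without TBT replicate 4), and Kdm6b, a demethylase of that mark, at −0.13 ± 0.22 (0.719; −0.15 and 0.655). Neither passed in either fit.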
